A study of Mus musculus with 18 samples.

Results

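The genes described here supply peptides to MHC class I molecules and present them: the immunoproteasome subunits Psmb8, Psmb9 and Psmb10, the peptide transporter genes Tap1 and Tap2, Tapbp, B2m, the class I heavy chains H2-K1 and H2-D1, and Nlrc5. They were taken from the liver RNA sequencing table by symbol, and all 10 were found among its 19057 symbols. They were chosen by earlier results of these livers, the Psmb9 values of the Con, STZ and A10-FMT mice. Where STZ is compared with Con or with A10-FMT, member values are therefore a description. Counts of members past the threshold for a call are given there beside those of all genes, and they are no test of the members.

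The livers came from ICR mice, an outbred stock, sampled at 10 weeks, with 3 mice in each of 6 groups. Con mice were the controls, which by the study's methods had a regular diet and saline, and AOS mice received alginate oligosaccharide at 10 mg/kg. STZ mice received streptozotocin, which destroys the insulin-producing beta cells and causes diabetes, and STZ+AOS mice received streptozotocin and AOS at 10 mg/kg. A10-FMT mice received streptozotocin and then gut microbiota from donors dosed with AOS at 10 mg/kg, and Con-FMT mice received streptozotocin and then microbiota from control donors. The AOS and STZ+AOS groups are known from the sample labels only. No source used here gives the MHC haplotypes of the mice, and the values of H2-K1 and H2-D1 may depend on how well a mouse's alleles match the reference, which was not tested.

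Nearly all nucleated cells carry MHC class I molecules, which show peptides from the cell's own proteins to CD8 T cells. Proteasomes cut proteins into peptides, and interferon gamma exchanges the catalytic subunits Psmb5, Psmb6 and Psmb7 for Psmb8, Psmb9 and Psmb10, which changes where proteins are cut. The TAP transporter carries the peptides into the endoplasmic reticulum, where they are loaded onto a heavy chain paired with beta-2 microglobulin, and NLRC5 is the transactivator that switches on class I genes through the SXY module of their promoters.

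Of the 10 genes, 7 lie on chromosome 17 (GRCm38 throughout, GENCODE M21 annotation). Psmb9, Tap1, Psmb8 and Tap2 were the only 4 protein-coding genes in a block of 34335 bases, chr17:34181987-34216321. Psmb9 is read from the minus strand and Tap1 from the plus strand, and their RefSeq start sites lie back to back with 225 bases between them, chr17:34187331-34187555. In GENCODE the ends of both genes overlap, and whether the reads were assigned by strand is not given in the sources used here, so reads from the overlap cannot be told apart. The other 3 genes of the block stand in the plus orientation.

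**Figure D1:**
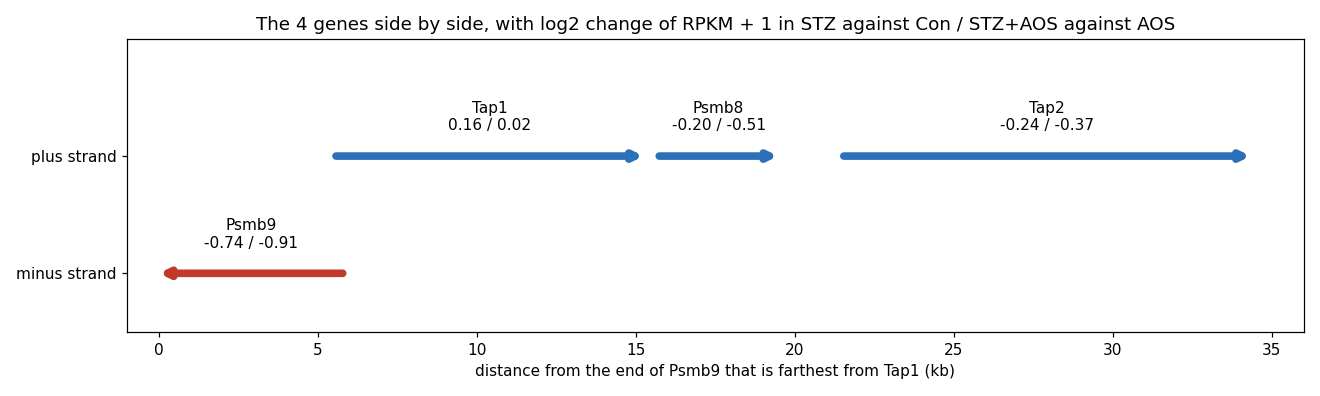
Psmb9, Tap1, Psmb8 and Tap2 drawn to scale by distance in kb along chromosome 17, with arrows in the direction of transcription. The pair of numbers under each name is the log2 change in STZ against Con and in STZ+AOS against AOS: Psmb9 has -0.74 and -0.91, its neighbour Tap1 0.16 and 0.02.

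RefSeq promoters (GRCm38.p6), from 250 bases before to 50 bases after the start, were given for 8 of the 10 genes. The stretches shown here hold letters that match short parts of the elements through which class I genes are known to be controlled. Capitals mark matches on either strand to an interferon-response core (GAAA or GAA, then 2 bases of any kind, then GAAA), to TGACG, the half-site of the X2 box, and to CCAAT, the Y box, and no marked matches overlap each other. Where an annotated exon covers the window, only sites of 30 bases are shown. A further H2-D1 site, with CCAAT (chr17:35263028-35263057, plus strand), is left out.
H2-K1, chr17:34000353-34000517, minus strand: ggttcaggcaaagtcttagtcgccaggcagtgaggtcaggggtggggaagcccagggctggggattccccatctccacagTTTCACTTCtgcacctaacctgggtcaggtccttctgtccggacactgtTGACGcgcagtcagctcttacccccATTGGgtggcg
B2m, chr2:122147517-122147681, plus strand: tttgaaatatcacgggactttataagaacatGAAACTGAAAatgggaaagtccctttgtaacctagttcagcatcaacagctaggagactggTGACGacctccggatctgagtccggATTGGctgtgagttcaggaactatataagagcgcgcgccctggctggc
H2-D1, chr17:35262933-35262962, plus strand: catctcctcagTTTCACTTCtgcacctaac
H2-D1, chr17:35262980-35263009, plus strand: gccgggacactgaTGACGcgctggcaggtc
Between Psmb9 and Tap1, chr17:34187331-34187360, plus strand: tttCCAATcagcggctgcgcgcggtgcagg
Between Psmb9 and Tap1, chr17:34187457-34187486, plus strand: gcccagagacaggTGACGacagagggtcct

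TGACG was found in 5 of the 8 promoters, those of Psmb9, Tap1, B2m, H2-K1 and H2-D1, and in 20.8% of 32851 mouse promoters of the same length. CCAAT was found in these 5 and in Tapbp, 6 of 8, and in 37.4% of all promoters. The interferon core that starts with GAAA was found in B2m (3.44% of all promoters) and the core that starts with GAA in H2-K1 and H2-D1 (7.52%). The STAT element, TTC and GAA with 3 bases between them, was found in Psmb8 (8.3%). Psmb9 and Tap1 share their TGACG and CCAAT matches, because both lie between their starts. A match describes the letters of the window and does not show that a factor binds there. The search took no account of the spacing, order or strand of the matches, so they do not show a complete SXY module.

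Levels are given in RPKM, reads divided by the authors by the length of the transcript and by the library's mapped reads, so levels can be set side by side between genes. B2m was the most abundant member, with 1772 to 2813 RPKM (median 2279) over the 18 livers. H2-D1 followed with 238 to 721 RPKM (median 517) and H2-K1 with 291 to 511 (median 430). These 3 encode the chains of the presented molecule itself.

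The remaining members were far lower. Median levels were 26.6 RPKM for Psmb8, 22.98 for Psmb9, 20.5 for Psmb10, 18.4 for Tapbp and 13.0 for Tap2. The ranges of Psmb8, Psmb9, Psmb10 and Tapbp over the 18 livers overlapped each other. Tap1 (median 6.39 RPKM) and Nlrc5 (median 2.70) were lowest, and all 10 genes were above 1 RPKM in each of the 18 livers.

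**Figure D2:**
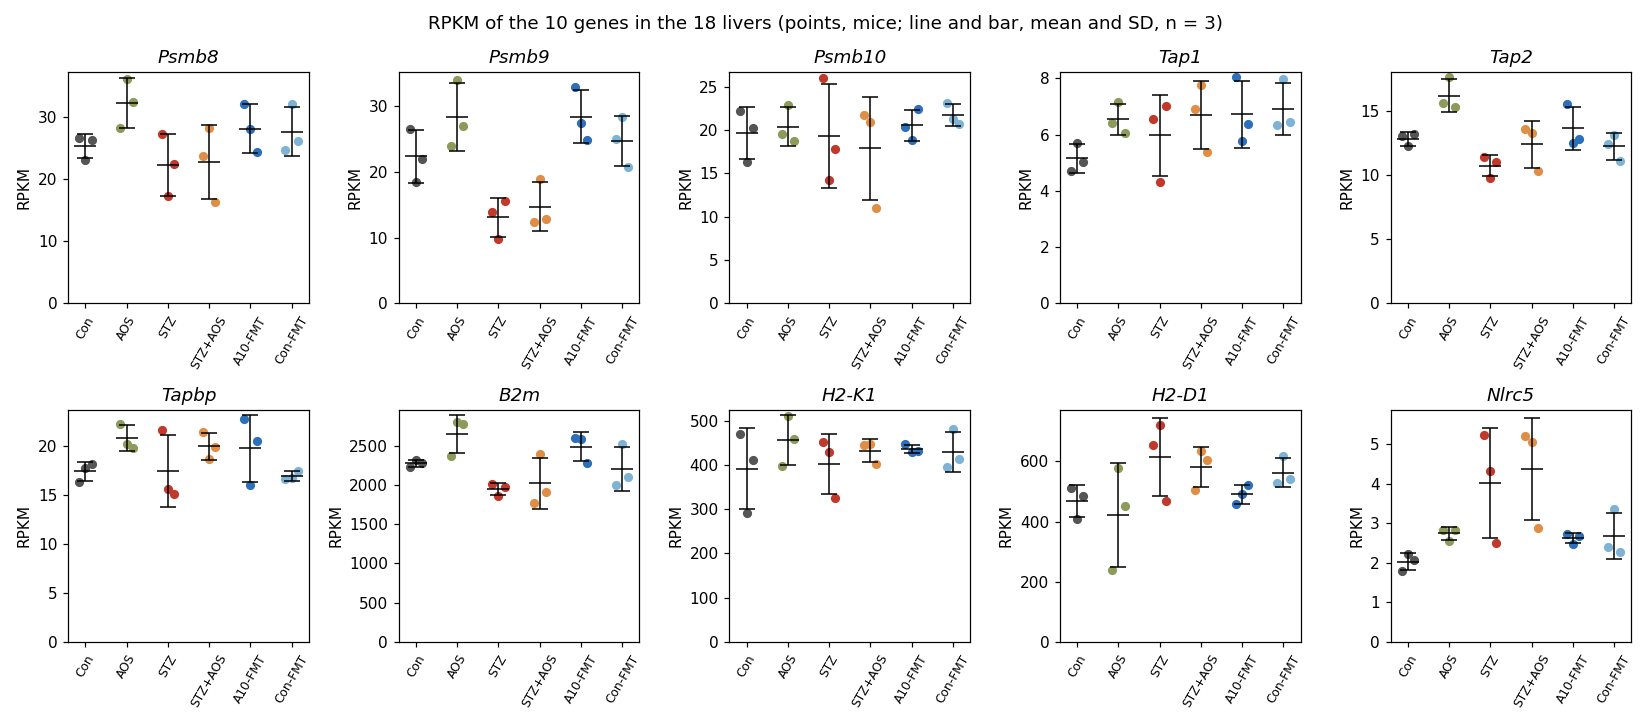
RPKM (y axis, from 0, a scale of its own for each gene) of the 10 genes in the 6 groups (x axis), with a point per mouse and the mean and SD of 3 mice. Psmb9 stands at 9.80 to 19.0 RPKM in the STZ and STZ+AOS mice and at 18.5 to 34.0 in the other 4 groups, while Tap1 shows no such step.

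Values were compared as log2(RPKM + 1), which understates changes of low genes, in 1 linear model (limma, two-sided, Benjamini-Hochberg adjusted over all genes tested). A gene counts as called at an adjusted p under 0.05. All genes shifted together in some comparisons. Over all genes tested, the log2 change had a median of 0.21 in STZ against Con and 0.21 in STZ+AOS against AOS, so a member at 0 lay below most genes. Scaling the libraries to a common level by 3 other methods removed this shift (medians of -0.04 to 0.01 in both comparisons), and member directions that turned with it are named below. With the values as deposited, 85.7% of calls in STZ against Con and 83.9% in STZ+AOS against AOS were higher, against 46.6% to 51.7% and 40.9% to 50.6% after the other scalings.

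The effect of streptozotocin was read in mice given AOS, which played no part in the choice of the genes. Here 4 of the 10 genes were lower in STZ+AOS than in AOS, namely Psmb9, Tap2, Psmb8 and B2m, and none was higher, where 37.9% of all 10822 genes were called and 6.11% were called lower. Of the 10 genes, 7 had a negative log2 change and the median change was -0.15, while the median of all genes was 0.21. The same 4 genes were called lower under each of the 3 other scalings. There 2654 to 2729 of all genes were called and only 40.9% to 50.6% of these calls were higher. More genes were thus called lower than the 6.11% above, which does not apply to those scalings. The STZ+AOS and AOS mice did not overlap in 3 of the 10 genes, against 49.1% of all genes.

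Psmb9 encodes the beta1i subunit, which takes the place of Psmb6. It had 23.95, 33.96 and 26.91 RPKM in the AOS mice and 12.4, 19.0 and 12.8 in the STZ+AOS mice. Each STZ+AOS mouse lay below each AOS mouse. The log2 change was -0.91 ± 0.20 (SE, n = 3 per group, limma adjusted p = 0.00313), and it stayed between -1.09 and -0.77 and called whichever mouse was left out.

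Psmb8, the beta5i subunit, had 28.2, 36.3 and 32.6 RPKM in AOS and 23.7, 28.3 and 16.4 in STZ+AOS. The groups touched, since STZ+AOS mouse 2 stood just above AOS mouse 1. The log2 change was -0.51 ± 0.19 (adjusted p = 0.043). Psmb10, the beta2i subunit, had 19.5, 22.9 and 18.7 RPKM against 21.69, 20.96 and 10.99, with only STZ+AOS mouse 3 apart from the rest (log2 change -0.23 ± 0.22, adjusted p = 0.426).

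Tap2, the second chain of the transporter, had 15.7, 17.7 and 15.4 RPKM in AOS and 13.6, 13.3 and 10.3 in STZ+AOS, without overlap. Its log2 change was -0.37 ± 0.11 (adjusted p = 0.0184). Tap1, its partner in the transporter and the neighbour of Psmb9, had 6.42, 7.14 and 6.06 RPKM against 6.92, 7.77 and 5.39, so that the groups lay through each other. The log2 change of Tap1 was 0.02 ± 0.16 (adjusted p = 0.935), and it was -0.20 to -0.23 under the 3 other scalings, none of them called.

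B2m, the light chain, had 2373, 2813 and 2778 RPKM in AOS and 1772, 2393 and 1912 in STZ+AOS, where only STZ+AOS mouse 2 reached the AOS range. Its log2 change was -0.40 ± 0.15 (adjusted p = 0.0481). The calls of Psmb8, Tap2 and B2m rested on single mice. The 4 genes called lower became 2 without AOS mouse 3 or without STZ+AOS mouse 1. They became 1, Psmb9, without AOS mouse 2, when H2-D1 was called higher, without STZ+AOS mouse 3, when Nlrc5 was called higher, and when only the AOS and STZ+AOS libraries entered the model.

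Neither heavy chain was called. H2-K1 had 399, 511 and 459 RPKM in AOS and 446, 448 and 403 in STZ+AOS (log2 change -0.07 ± 0.17, adjusted p = 0.759). H2-D1 had 238, 579 and 451 RPKM in AOS and 506, 635 and 604 in STZ+AOS (log2 change 0.55 ± 0.25, adjusted p = 0.0905). AOS mouse 1 held the lowest H2-D1 value of all 18 livers, and without it the change was 0.18. Without AOS mouse 2 it was 0.82 and H2-D1 was called. Of the 50-base stretches of the H2-D1 transcripts, 13.9% also occur in other genes, most of them in H2-Q1 and H2-K1, and 6.87% of those of H2-K1, so reads of these genes may have been split between them.

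Tapbp, or tapasin, which holds the empty heavy chain at the transporter, had a log2 change of -0.05 ± 0.13 (adjusted p = 0.769). Nlrc5 had 2.84, 2.56 and 2.84 RPKM in AOS and 5.20, 5.05 and 2.89 in STZ+AOS. The 2 groups did not overlap, although STZ+AOS mouse 3 lay next to the AOS mice. The log2 change was 0.49 ± 0.20 (adjusted p = 0.0584), and without STZ+AOS mouse 3 it was 0.71 and called.

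**Figure D3:**
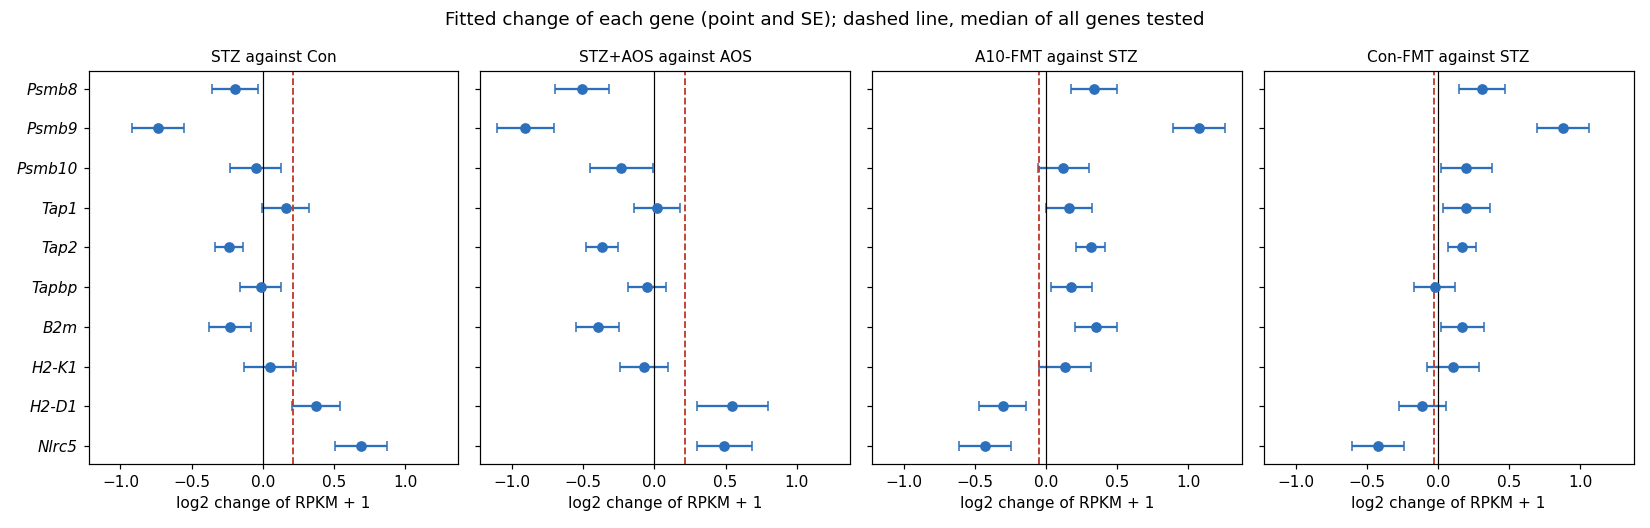
Fitted log2 change of RPKM + 1 (x axis) with its SE for each gene (y axis) in 4 comparisons. The dashed line is the median of all genes tested, 0.21 in both comparisons of streptozotocin with its control, and Psmb9 lies farthest to the left in both, at -0.74 and -0.91.

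In mice without AOS, from whose values the genes were chosen, the description ran as follows. Psmb9 had 26.46, 18.50 and 22.01 RPKM in Con and 13.9, 9.80 and 15.6 in STZ, and the 2 groups did not overlap (log2 change -0.74 ± 0.18). Nlrc5 had 1.79, 2.23 and 2.07 RPKM in Con and 5.24, 4.32 and 2.50 in STZ (0.69 ± 0.18). These were the 2 members past the threshold in STZ against Con, in opposite directions, where 38.5% of all 10602 genes were called. Because of the choice, passing the threshold here is no evidence for the members. The set depended on scaling. Nlrc5 was no longer past the threshold after median-ratio scaling (0.50) or median centring (0.45). There the members past it were 0 higher and 3 lower, namely Psmb9, Tap2 and B2m, while 2893 and 2934 of all genes were called. After quantile normalization they were 1 higher, Nlrc5, and 2 lower, Psmb9 and Tap2, while 2873 of all genes were called. Without STZ mouse 3 the number was 3, with 5012 of all genes called. It was 1 without Con mouse 1 (2562 of all genes) or without STZ mouse 2 (2630 of all genes), against 4087 with all mice.

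Tap2 in STZ, at 11.45, 9.83 and 11.03 RPKM, lay below Con at 13.0, 12.3 and 13.3 (log2 change -0.24 ± 0.10). B2m lay lower too, with 2012, 1860 and 1973 RPKM in STZ against 2238, 2325 and 2278 in Con (-0.23 ± 0.15). Under the 3 other scalings Tap2 was at -0.51 to -0.48, and B2m at -0.50 and -0.47 but -0.17 after quantile normalization. The other changes were -0.20 for Psmb8, -0.05 for Psmb10, -0.02 for Tapbp, 0.05 for H2-K1, 0.16 for Tap1 and 0.37 for H2-D1. With those scalings Tap1 and H2-K1 turned negative (Tap1 -0.08 to -0.06, H2-K1 -0.25 to -0.19), and H2-D1 was -0.01 after quantile normalization.

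The difference between the streptozotocin effects with and without AOS was tested itself, and it contains the Con and STZ values used in the choice. It was called for 0 of the 10 genes and for 0 of 10822 genes (limma), with 0 members and 584 genes at an unadjusted p under 0.05. For Psmb9, whose values made the choice, it was -0.17 ± 0.28 and is given without a test. For Psmb8 it was -0.31 ± 0.27 (adjusted p = 0.924) and for Nlrc5 -0.20 ± 0.28 (adjusted p = 0.96). These SEs are large beside the differences, so the test does not show that the effects were alike.

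Of the remaining comparisons with streptozotocin, STZ+AOS against Con gave 2 called members (47.3% of all genes), Psmb9 at -0.58 ± 0.20 (adjusted p = 0.0256) and Nlrc5 at 0.80 ± 0.20 (adjusted p = 0.00408). STZ+AOS against STZ gave 0 of 10 and 0 of 10822 genes (limma), with 0 members and 657 genes at an unadjusted p under 0.05. There Psmb9 changed by 0.16 ± 0.20 (adjusted p = 0.888) and Nlrc5 by 0.11 ± 0.20 (adjusted p = 0.919). In STZ+AOS against Con Psmb9 was not called without Con mouse 1, Con mouse 3 or STZ+AOS mouse 1, which left 1 member, nor without STZ+AOS mouse 3, when another member, Tap1, was called higher. Nlrc5 was not called there after median centring. These comparisons share STZ, Con or STZ+AOS mice with those above, and their p-values are no independent evidence for Psmb9.

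AOS alone was set against Con. None of the 10 genes was called (limma, 1 member and 781 genes at an unadjusted p under 0.05), where 0.00924% of all genes were called. However, 9 of the 10 had a positive log2 change, with a median of 0.27 against 0.06 for all genes, and in 6 of them, Psmb8, Tap1, Tap2, Tapbp, B2m and Nlrc5, the 3 AOS mice lay above the 3 Con mice, as they did in 19.1% of all genes. Tap2 changed by 0.31 ± 0.11 (adjusted p = 0.623), Psmb8 by 0.33 ± 0.19 (adjusted p = 0.764) and Psmb9 by 0.33 ± 0.20 (adjusted p = 0.788). The Con mice were used in the choice of the genes, so the last p-value is no independent evidence for Psmb9. The fall in STZ+AOS against AOS was thus measured from AOS mice with higher values than Con, and in Tap2 the STZ+AOS mice (10.3 to 13.6 RPKM) lay through the Con mice (12.3 to 13.3).

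The transplanted mice had Psmb9 at the level of Con or above. Psmb9 had 32.8, 27.4 and 24.9 RPKM in A10-FMT and 25.0, 28.3 and 20.8 in Con-FMT. All 6 transplanted mice lay above the 3 STZ mice. In A10-FMT against STZ, a comparison used in the choice, the log2 change was 1.07 ± 0.18, and Psmb9 was the 1 member past the threshold, where 0.226% of all genes were called. It was not past the threshold under quantile normalization, without a filter, in limma without trend, with a replicate block or with only these 2 groups in the model. The number was also 0 without STZ mouse 2 and without any 1 of the A10-FMT mice, and it was 3 without STZ mouse 3, with H2-D1 and Nlrc5 lower, while the number of all genes called rose from 24 to 1343.

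Con-FMT against STZ shares its STZ mice with the comparisons used in the choice, so its p-values are no independent evidence for Psmb9. The Psmb9 change of 0.88 ± 0.18 was not called (limma adjusted p = 0.0719), and 0 of 10 members were (0.00943% of all genes, 2 members and 2131 genes at an unadjusted p under 0.05). Without STZ mouse 3 there were 2 called members, Psmb9 at 1.01 (adjusted p = 0.00831) and Nlrc5 at -0.66 (adjusted p = 0.0112), while the number of all genes called rose from 1 to 1636. Nlrc5 with all mice was at -0.42 ± 0.18 (adjusted p = 0.231), with 2.39, 3.35 and 2.28 RPKM in Con-FMT and 2.73, 2.48 and 2.67 in A10-FMT.

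A10-FMT against Con-FMT gave 0 called members and 0 of 10602 genes (limma, 0 members and 303 genes at an unadjusted p under 0.05). Psmb9 was higher by 0.19 ± 0.18 (adjusted p = 0.999), with overlapping mice. The A10-FMT mice were used in the choice, so this p-value is no independent evidence for Psmb9. H2-D1 was the member without overlap, at 458, 492 and 521 RPKM in A10-FMT and 530, 617 and 542 in Con-FMT (log2 change -0.20 ± 0.17, adjusted p = 0.999), as were 8.92% of all genes. Against Con, 0 members were called in A10-FMT (18.4% of all genes, limma, 0 members and 3737 genes at an unadjusted p under 0.05) and 0 in Con-FMT (19.4%, 1 member and 3876 genes). Psmb9 differed from Con by 0.34 ± 0.18 in A10-FMT, a description since both groups were used in the choice. In Con-FMT it differed from Con by 0.14 ± 0.18 (limma adjusted p = 0.597), and by -0.10 to -0.06 under the other scalings. The Con mice were used in the choice, so that p-value is no independent evidence for Psmb9.

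A ratio of the RPKM of 2 genes within a liver does not change when a whole library is multiplied by a factor. This holds only nearly for the tested log2 ratios, which add 1 to each value. Psmb9 stood at 0.224 ± 0.0583 (SD, n = 3) of the RPKM of Psmb6, the subunit it replaces, in Con and at 0.280 ± 0.0519 in AOS. It stood at 0.121 ± 0.0446 in STZ and 0.132 ± 0.0225 in STZ+AOS, and at 0.234 ± 0.0537 in A10-FMT and 0.213 ± 0.0463 in Con-FMT. All 6 STZ and STZ+AOS livers, at 0.0862 to 0.171, lay below the 12 others, at 0.177 to 0.318. The Psmb9 values of the Con, STZ and A10-FMT livers were used in the choice of the genes, so this separation is a description. In the groups outside the choice the ratio was 0.115 to 0.158 in STZ+AOS, 0.221 to 0.318 in AOS and 0.177 to 0.265 in Con-FMT.

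The log2 ratio of Psmb9 to Psmb6 was lower by 1.03 in STZ+AOS than in AOS (difference -1.03). The exact permutation test (two-sided) gave p = 0.1, the smallest that 3 against 3 mice allow, and 0.5 after adjustment over 15 ratio tests, so no ratio could pass the threshold. In the same exact test Psmb8 to Psmb5 also had p = 0.1, with a difference of -0.68, from 0.419 ± 0.0638 in AOS to 0.260 ± 0.0606 in STZ+AOS. Psmb10 to Psmb7 differed by -0.31 (exact permutation p = 0.4), from 0.167 ± 0.0243 to 0.137 ± 0.0395.

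Psmb9 was also set against Tap1, a ratio chosen after its values were seen and therefore given without a test. It was 1.79 to 2.44 in the 6 STZ and STZ+AOS livers and 3.23 to 5.62 in the 12 others. The pair of genes that start 225 bases apart thus had different ratios in these livers, with Tap1 at 4.32 to 7.77 RPKM in the 6 and at 4.71 to 8.04 in the 12.

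**Figure D4:**
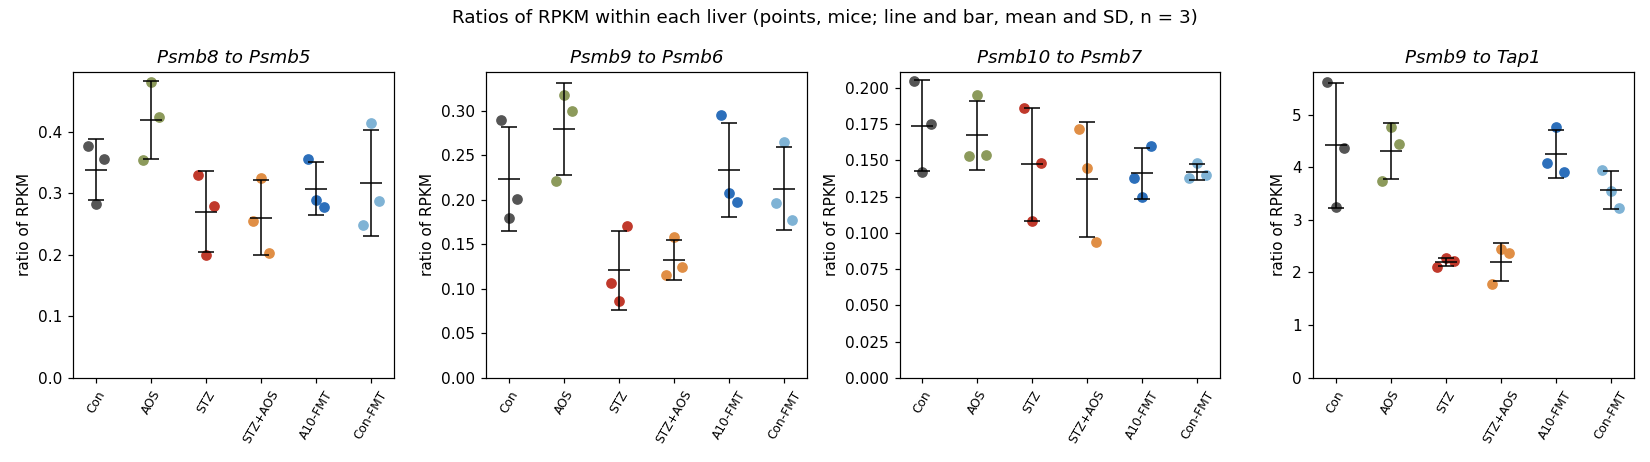
Ratios of RPKM within each liver (y axis, from 0) in the 6 groups (x axis), with a point per mouse and the mean and SD of 3 mice. Psmb9 to Psmb6 and Psmb9 to Tap1 are low in STZ and STZ+AOS, where Psmb9 to Tap1 is 1.79 to 2.44 against 3.23 to 5.62 elsewhere, while Psmb10 to Psmb7 shows no such step.

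The rest of the pathway was read from lists of genes that are no members, and the calls in STZ against Con are given before those in STZ+AOS against AOS. Among all genes 38.5% and 37.9% were called, most of them higher, and no list count here was tested against these shares. Of 13 tested genes for peptide supply and loading, 2 rose and 2 fell, then 3 rose and 1 fell. Pdia3, which forms disulfide bonds in the loading complex, fell in both (-0.78 ± 0.16, adjusted p = 0.0043, and -0.57 ± 0.15, adjusted p = 0.00934), and the aminopeptidase Npepps rose in both (0.40 and 0.47). Erap1, which trims peptides in the endoplasmic reticulum, rose by 0.30 and 0.27, the chaperone Calr fell in STZ (-0.85, adjusted p = 0.00811) and the proteasome activator Psme3 rose in STZ+AOS (0.39, adjusted p = 0.0198). Calr was at -0.51 (adjusted p = 0.065) in STZ+AOS against AOS and Psme3 at 0.17 (adjusted p = 0.25) in STZ against Con.

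Of the 14 constitutive 20S proteasome genes, 2 rose in STZ against Con, Psma6 (0.42) and Psmb1 (0.29), and Psma6 alone rose in STZ+AOS against AOS (0.43, adjusted p = 0.00429). None fell in either. Psmb5, Psmb6 and Psmb7, the counterparts of the members, were not among those called. The median change of this list was 0.15 and 0.12, below that of all genes.

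Other class I and class I-like heavy chains (19 tested) had 4 genes higher and 4 lower in STZ against Con, and 0 higher and 2 lower in STZ+AOS against AOS. H2-Q10, a class I chain that the liver secretes, had 996, 645 and 730 RPKM in AOS and 353, 418 and 265 in STZ+AOS, without overlap. Its log2 change was -1.19 ± 0.19 (adjusted p = 0.000492), and in STZ against Con it was -0.60 ± 0.15 (adjusted p = 0.0115). Mr1, which presents microbial metabolites, fell in both (-0.45 and -0.42), Raet1e, an NKG2D ligand, fell in STZ (-1.75 ± 0.31, adjusted p = 0.00214) and H2-T24 rose (0.92 ± 0.23, adjusted p = 0.0104). In STZ+AOS against AOS Raet1e was at -0.90 (adjusted p = 0.157) and H2-T24 at -0.14 (adjusted p = 0.638). H2-Q10 shares 7.73% of its 50-base stretches with other genes.

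Among 26 tested genes of class I transcription and interferon signalling, 8 rose and 2 fell in STZ against Con, and 6 rose and 2 fell in STZ+AOS against AOS, shares no higher than among all genes. Rfxank, a subunit of the RFX complex that binds the X box of class I and class II promoters, fell in both (-1.05 ± 0.20, adjusted p = 0.00325, and -0.76 ± 0.19, adjusted p = 0.007). The kinase gene Jak1 rose in both (0.35 and 0.39), and so did the receptor genes Ifnar1 (0.33 and 0.25) and Ifnar2 (0.45 and 0.37). Stat3 rose in both (0.62 ± 0.15, adjusted p = 0.01, and 0.91 ± 0.15, adjusted p = 0.000691), as did Socs3, a feedback inhibitor of cytokine signalling (1.07 ± 0.32, adjusted p = 0.0222, and 2.03 ± 0.38, adjusted p = 0.00128).

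Of 15 interferon-inducible GTPases, 1 rose (Gbp3, 0.83) and 1 fell (Ifi47, -0.94) in STZ against Con, and 3 fell in STZ+AOS against AOS, Gbp4 (-0.90, adjusted p = 0.0296), Gbp6 (-1.05, adjusted p = 0.0317) and Gbp10 (-1.73, adjusted p = 0.0116). None of these 5 genes was called in the other comparison, and the test of the difference itself passed for none of them (limma adjusted p = 0.856 for Ifi47, Gbp4 and Gbp10, 0.895 for Gbp6 and 0.972 for Gbp3). The STZ+AOS and AOS mice overlapped in Gbp6 (3.29 to 8.1 RPKM against 6.37 to 14.78) and Gbp10 (2.63 to 7.16 against 6.33 to 26.01), but not in Gbp4. Of 8 MHC class II genes, 1 fell in STZ against Con, H2-Eb1 (-0.99, adjusted p = 0.0428), and 0 were called in STZ+AOS against AOS (limma). H2-Eb1 was low and its mice overlapped, with 1.01 to 2.79 RPKM in Con and 0.08 to 1.2 in STZ.

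The 8 genes outside the list whose values over the 18 livers ran closest to the mean profile of the members, by the mean absolute difference in SD units, were Mov10 (0.410), Ifitm3 (0.419), Gm12250 (0.423), Shisa5 (0.465), Zbp1 (0.466), Uba7 (0.469), Slc23a1 (0.480) and Vwa5a (0.487). Of the members, which enter the profile themselves, Psmb8 (0.424) and H2-K1 (0.485) were closest and Nlrc5 (0.846) was farthest.

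In whole liver, fewer cells of a type and less RNA per cell cannot be told apart, and markers of several cell types differed between the groups. Ptprc, the 1 marker of all leukocytes, was called neither in STZ against Con (log2 change -0.01) nor in STZ+AOS against AOS (-0.12). The summed RPKM of 8 T cell markers was 2.10 to 2.85 in Con, 2.42 to 2.98 in AOS, 0.970 to 1.78 in STZ and 1.01 to 2.26 in STZ+AOS. The sum of 4 B cell markers was 1.52 to 1.69, 1.82 to 2.33, 0.360 to 0.750 and 0.480 to 1.07 in the same order. Both sums were lower in STZ than in Con and in STZ+AOS than in AOS. From Con to STZ, most of the T cell difference was Cd4 (means of 1.16 and 0.213 RPKM). Cd3e (0.363 and 0.327) and Cd3g (0.37 and 0.36) hardly differed, Cd3d was higher (0.06 and 0.0933), and the other T cell markers were lower. Of the 8 T cell markers 1 passed the filter, and of the 4 B cell markers 0. In A10-FMT the sums were 1.07 to 1.73 for T cells and 0.620 to 1.41 for B cells, and in Con-FMT 1.34 to 1.69 and 0.700 to 1.42. The T cell sums of the transplanted mice thus lay within the range of STZ, while their Psmb9 values lay above all STZ mice.

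The 11 Kupffer cell and macrophage markers summed to 116 to 168 RPKM in Con, 140 to 188 in AOS, 165 to 334 in STZ and 181 to 269 in STZ+AOS, with 3 of 11 called higher in STZ against Con, where 3502 of 10602 genes were, and 2 in STZ+AOS against AOS, where 3441 of 10822 were. In A10-FMT the sum was 220, 83.0 and 224 and in Con-FMT 197, 130 and 202, so that 4 of these 6 livers lay within the range of STZ. Stellate cell markers summed to 68.1 to 79.4 RPKM in Con and 106 to 126 in STZ, and to 78.3 to 87.9 in AOS and 130 to 151 in STZ+AOS, without overlap in either comparison. Most of this sum was 1 gene, Dcn, with means of 64.9 RPKM in Con, 107 in STZ, 76.2 in AOS and 130 in STZ+AOS. Of the 5 stellate markers, 1 was called higher in each comparison, and their median log2 change (0.12 and 0.20) was below that of all genes (0.21 in both). The A10-FMT livers had stellate sums of 96.3 to 107, and the Con-FMT livers had 68.5 to 138. Sinusoidal endothelial markers summed to 39.4 to 45.1 in Con, 42.9 to 55.9 in STZ, 39.8 to 50.3 in AOS and 49.9 to 69.1 in STZ+AOS. Neutrophil markers summed to 2.56 to 4.24 in AOS and 5.44 to 18.1 in STZ+AOS without overlap, but to 3.21 to 9.66 in Con and 1.48 to 3.81 in STZ. NK cell and dendritic cell markers summed to at most 3.67 and 1.11 RPKM in any liver, and none of these markers was listed at 0 in a whole group except 1 NK marker in Con-FMT. Hepatocyte markers summed to 39478 to 58835 RPKM, as the tissue label has it. Most of this sum was 1 gene, Alb, with means of 30344 RPKM in Con and 30089 in STZ. Single hepatocyte markers did change. Of the 7, 4 were called higher and 2 lower in STZ against Con, and 3 higher and 2 lower in STZ+AOS against AOS. Mean Ttr was 4903 RPKM in Con and 2539 in STZ, and mean Cps1 was 374 and 955. The part of these cells in the member values was not tested.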

How the data were processed

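RNA sequencing of 18 mouse livers was used, 3 mice in each of Con, AOS, STZ, STZ+AOS, A10-FMT and Con-FMT. The authors deposited 1 RPKM value per gene and library, a unit taken from the methods. The methods name SOAPaligner, whereas the submitters' processing notes name Bowtie 0.12.2 and mm10. All 18 columns were matched to mice by title.

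A gene entered a model when 3 or more of its libraries held 1 RPKM or more, and 1 was added before log2. Moderated linear models of limma 3.58.1 (R 4.3.3), with the mean-variance trend, were fitted to Con, STZ, A10-FMT and Con-FMT (12 libraries, 10602 genes) for comparisons among these groups, and to all 6 groups (18 libraries, 10822 genes) for those with AOS. All 10 members passed the filter in both. On simulated data with 200 genes changed by 1 on the log2 scale, 87.5% were recovered in STZ against Con and 90% in STZ+AOS against AOS. The changed genes were drawn from the more abundant genes, a level that Tap1 and Nlrc5 do not reach, with independent noise. No member changed by as much as 1 in these comparisons, so the rates do not describe how well member changes are found. Ratios were compared by exact permutation tests (scipy, two-sided).

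Reads per library cannot be read from RPKM. Relative depths, from the step size of the smallest values in 10 genes, were 0.912 to 1.134. They were 1.02 to 1.134 in the Con and AOS livers and 0.928 to 0.995 in the STZ and STZ+AOS livers. Estimated depth thus ran together with streptozotocin in these groups, and its part in the changes was not tested. Mouse numbers come from the titles, and p-values measure the spread between these libraries, which may be technical where they do not stand for separate animals. Of the symbols, 26 looked like dates and 3 were repeated, none of them a member.

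The members and lists were chosen with earlier results of these data known. List genes are named by rule, at most 4 called genes per list and comparison with the smallest adjusted p. Ratio partners were the constitutive subunits, and Psmb9 to Tap1 was added after its values were seen. Alternatives were 3 scalings, a pseudocount of 0.1, 2 other filters, limma without trend, a replicate block, other sets of libraries and leaving out each mouse.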

Additional observations from a re-analysis of the deposited data

How the results depend on the processing

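The count of called members changed by more than 1.5 times in 3 comparisons. In A10-FMT against STZ it was 0 in place of 1 under quantile normalization, without a filter, in limma without trend, with the replicate block and with only the groups compared. In STZ+AOS against AOS it was 2 without a filter and 1 with only the groups compared, in place of 4. In STZ+AOS against Con it was 4 after median-ratio scaling and 1 with only the groups compared, in place of 2. After that scaling 3227 of all genes were called there, in place of 5123. Leaving out 1 mouse gave 1 to 3 called members in STZ against Con, 0 to 3 in A10-FMT against STZ, 0 to 2 in Con-FMT against STZ, 2 to 4 in STZ+AOS against AOS and 1 to 2 in STZ+AOS against Con. The number of all genes called moved as well. In STZ against Con it was 2562 without Con mouse 1 and 5012 without STZ mouse 3. In A10-FMT against STZ it was 0 without STZ mouse 2 and 1343 without STZ mouse 3. Of the 4 genes called in STZ+AOS against AOS, all 4 were called under each of the 3 scalings, where 2654 to 2729 of all genes were called. The cause was not tested.

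Changes near 0 turned sign. Tap1 in STZ+AOS against AOS was -0.20, -0.23 and -0.23 after median-ratio scaling, median centring and quantile normalization, and Psmb9 in Con-FMT against Con was -0.0759, -0.0615 and -0.10. With 1 mouse left out, the log2 change in STZ+AOS against AOS ran from -0.39 to 0.067 for Psmb10, from -0.0814 to 0.15 for Tap1 and from -0.17 to 0.0136 for H2-K1. In Con-FMT against STZ it ran from -0.0382 to 0.20 for H2-K1 and from -0.29 to 0.0181 for H2-D1, in AOS against Con from -0.51 to 0.13 for H2-D1, and in STZ+AOS against STZ from -0.0291 to 0.29 for Psmb9 and from -0.13 to 0.33 for Nlrc5. The difference of the streptozotocin effects ran from -0.44 to 0.0198 for Nlrc5.

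Log2 ratios with 1 mouse left out ran, for Psmb8 to Psmb5, from -0.17 to 0.19 in A10-FMT against Con-FMT and from -0.24 to 0.11 in STZ+AOS against STZ. For Psmb9 to Psmb6 they ran from -0.0515 to 0.29 and from -0.0341 to 0.43 in the same comparisons. For Psmb10 to Psmb7 they ran from -0.19 to 0.0694 in AOS against Con, from -0.22 to 0.15 in Con-FMT against STZ, from -0.11 to 0.0619 in A10-FMT against Con-FMT and from -0.30 to 0.13 in STZ+AOS against STZ. Psmb9 to Psmb6 in STZ+AOS against AOS stayed between -1.18 and -0.93.

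Whether mice of different groups share more than their numbers is not known. The deviations of same-numbered mice had a median correlation of 0.032, and those of other pairs -0.013. The correlation was over 0.1 in 16 of 45 same-numbered pairs and in 16 of 90 others. By the mean correlation per number, 9 of 18 libraries were closest to their own number. No test of this was made. With the number as a replicate block, 5 members were called in STZ+AOS against AOS, with Nlrc5 added (0.49, adjusted p = 0.0436). Depth in reads is unknown, so the counting error of low values could not be given.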
